A study of Mus musculus with 18 samples.

Results

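Medulloblastomas of Ptch mice that the labels place in the subtypes GFD and GFI were pooled and set against those of the subtype NG, to ask what GFD and GFI tumours share. The pooled side, called GF-Ptch here, held 2 arrays of GFD-Ptch and 4 of GFI-Ptch. The other side was NG-Ptch with 4 arrays, so 10 of the 18 arrays of the study entered the comparison as its members. They were chosen by their titles, with no measured value, although the comparison itself was set with earlier results of these data known. The other 8 arrays were tumours of Smo mice. Of these, 4 are labelled NG-Smo;Atoh1-CreER (NG-Smo for short) and 4 GFD-Smo;GFAP-cre (GFD-Smo for short). Each array had been hybridized with RNA of 1 tumour, and all 10 tumours carried the genotype written only as Ptch. The labels do not spell out the subtype names, the Ptch allele, the strain or the age of the mice. GFI-Ptch replicate 4 differs from the rest in its origin. Its label describes a tumour that arose by progression from an earlier one and was grown in a female NSG mouse, a host that lacks lymphocytes, and it is called the transplanted tumour. Every value of the pooled comparison is given with it and, where that matters, without it.

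Ptch1 is the receptor that holds Smo in check when no Hedgehog ligand is bound. Loss of Ptch1 or activation of Smo switches on the Gli transcription factors, and in the cerebellum this keeps granule neuron progenitors, the cells that depend on the transcription factor Atoh1, in division. Medulloblastomas that grow from them are bulk tissues, in which tumour cells lie among astrocytes, cells of the oligodendrocyte lineage, microglia and vessels. In such tissue fewer cells of a type and less RNA per cell cannot be told apart.

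Values are the deposited log2 levels of 1 probe set for each of 19938 genes, and a difference is GF-Ptch minus NG-Ptch on that scale. Array medians lay between 7.74 and 7.87. Across all genes 2 GF-Ptch arrays correlated at 0.97 to 0.993, 2 NG-Ptch arrays at 0.993 to 0.996, and a GF-Ptch with an NG-Ptch array at 0.974 to 0.993. The granule neuron progenitor gene Atoh1 stood at 11.78 to 12.51 in NG-Ptch and at 12.01 to 12.81 in GF-Ptch, so the defining marker of the cells these tumours come from was high on all 10 arrays. Ptch1 was at 10.62 to 11.78 in GF-Ptch and 11.21 to 12.14 in NG-Ptch, but where its probe set lies in the gene is not known here, so that level does not check the genotype. The sides also differed in transcripts of the Y chromosome. Averaged over Uty, Kdm5d and Eif2s3y, their level was 5.40 to 5.47 in all 4 NG-Ptch arrays, 9.84 in both GFD-Ptch arrays, 10.16 in GFI-Ptch replicate 3, and 5.37 to 5.54 in the other 3 GFI-Ptch arrays. The transplanted tumour, labelled male, had Xist, the RNA of the inactive X chromosome, at 9.20 and no Y-linked signal above that of the NG-Ptch arrays. The gender label also went against these transcripts in GFD-Smo replicate 2, labelled female with a Y-linked level of 10.05, and in replicate 3, labelled male at 5.48, and it was ND on 3 of the 4 NG-Ptch arrays. Values with gender as a covariate take these labels as given, with ND as a class of its own. Among the Ptch arrays that class falls only on the NG-Ptch side, so the covariate overlaps with the comparison itself. Such values are therefore not the difference with sex alone taken out.

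Of the 19938 genes, 5 passed the test of the pooled comparison (0.0251%, limma with Benjamini-Hochberg adjustment over all genes, adjusted p under 0.05). All 5 fell in GF-Ptch and 0 rose. They were Rac3, a small GTPase of the Rac family that acts on the actin skeleton, Zdhhc2, an enzyme that attaches palmitate to proteins, Slc41a2, a magnesium transporter, Tanc2, a scaffold protein of synapses, and Rlbp1, which carries retinaldehyde. Each of the 5 was lower on all 6 GF-Ptch arrays than on any NG-Ptch array and had both subtype means below NG-Ptch. They thereby met the conditions set for a gene shared by GFD and GFI, which ask for the pooled call and for the side of each subtype mean but not for a call in each subtype. On its own GFD-Ptch minus NG-Ptch called 2 genes (0.0100%), Zdhhc2 (adjusted p = 0.0232) and Vopp1. GFI-Ptch minus NG-Ptch called 0 (limma, 1701 genes or 8.53% at an unadjusted p under 0.05), with an adjusted p of 0.0579 for Rac3 and Zdhhc2, 0.101 for Slc41a2, 0.112 for Tanc2 and 0.153 for Rlbp1.

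The promoters of the called genes that RefSeq holds (build GRCm38.p6, the 250 bases before the start, written 5′ to 3′ on the gene's strand) are printed because these genes moved together, so that a reader can look for what they share. Of the 5 genes 4 matched. Capitals mark the matches to 5 short motifs searched on both strands.
Rac3, chr11:120721218-120721467, plus strand: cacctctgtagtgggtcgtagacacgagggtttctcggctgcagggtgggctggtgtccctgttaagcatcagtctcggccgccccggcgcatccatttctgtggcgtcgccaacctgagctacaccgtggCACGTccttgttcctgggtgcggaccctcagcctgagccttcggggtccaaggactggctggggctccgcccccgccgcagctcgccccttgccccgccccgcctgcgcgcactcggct
Slc41a2, chr10:83337818-83338067, minus strand: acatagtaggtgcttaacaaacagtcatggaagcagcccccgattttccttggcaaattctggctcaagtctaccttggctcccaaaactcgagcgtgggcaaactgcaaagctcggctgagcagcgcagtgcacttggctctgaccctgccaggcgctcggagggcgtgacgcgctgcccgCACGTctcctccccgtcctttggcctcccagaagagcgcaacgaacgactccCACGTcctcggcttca
Tanc2, chr11:105589736-105589985, plus strand: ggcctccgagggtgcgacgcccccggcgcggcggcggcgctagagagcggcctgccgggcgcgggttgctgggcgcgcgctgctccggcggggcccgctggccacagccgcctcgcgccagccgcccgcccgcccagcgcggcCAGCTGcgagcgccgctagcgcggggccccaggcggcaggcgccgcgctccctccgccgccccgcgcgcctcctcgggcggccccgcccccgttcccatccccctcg
Rlbp1, chr7:79387028-79387277, minus strand: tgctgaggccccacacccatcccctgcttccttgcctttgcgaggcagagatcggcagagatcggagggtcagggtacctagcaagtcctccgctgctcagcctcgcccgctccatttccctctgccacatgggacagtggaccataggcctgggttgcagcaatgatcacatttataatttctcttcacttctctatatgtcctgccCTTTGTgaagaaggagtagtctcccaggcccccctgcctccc
The motifs were GLI (GACCACCCA), an E-box (CAGCTG), SOX (ACAAAG), ETS (CCGGAAG) and HRE, the core bound by hypoxia-inducible factors (ACGTG). The capitals in Rac3 and Slc41a2 are HRE, which 2 of the 4 held against 20.9% of the 15614 genes with a promoter. The capitals in Tanc2 are the E-box (1 of 4, 14.5% of all genes) and those in Rlbp1 are SOX (1 of 4, 16.8%). GLI (0.192%) and ETS (10.7%) were in 0 of these 4 windows. No motif was in all 4, no 2 matches overlapped, and a match to so few letters is a description of the sequence and not a binding site.

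Rac3 (probe set 10383472) was at 8.49, 8.55, 8.57 and 8.42 in NG-Ptch replicates 1, 2, 4 and 5. It stood at 8.19 and 7.75 in GFD-Ptch and at 7.88, 8.08, 7.76 and 8.07 in GFI-Ptch replicates 1 to 4. The highest GF-Ptch array thus lay below the lowest NG-Ptch array, and the transplanted tumour (8.07) was within the range of the other 5. The mean was 7.96 ± 0.18 (SD, n = 6) against 8.51 ± 0.07 (n = 4), and the gene fell by 0.55 (SE 0.0764, adjusted p = 0.0191).

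Zdhhc2 (10571399), one of a large family of palmitoyltransferases, had, of the 5, the tightest NG-Ptch values relative to its change, at 9.86, 9.98, 9.80 and 9.84. GFD-Ptch was at 8.64 and 7.94, and GFI-Ptch at 8.58, 9.10, 8.43 and 8.86. It fell by 1.28 (SE 0.178, adjusted p = 0.0191). The other members of the palmitoylation list did not share this: of its 15 measured genes Zdhhc2 was the 1 that was called, 10 of the 15 lay below 0, and the list's median was -0.03 against 0.03 for all genes.

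Slc41a2 (10371321) was nearly constant in NG-Ptch, at 8.53, 8.49, 8.49 and 8.62. It was at 7.93 and 7.60 in GFD-Ptch and at 7.96, 8.19, 7.81 and 7.80 in GFI-Ptch. The gene fell by 0.65 (SE 0.0967, adjusted p = 0.0270), and the GF-Ptch array nearest to NG-Ptch was GFI-Ptch replicate 2 at 8.19.

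Tanc2 (10381934) was at 8.12 in NG-Ptch replicate 1 and at 8.85, 8.86 and 8.89 in replicates 2, 4 and 5. The 2 GFD-Ptch arrays read 7.49 and 7.16, and the 4 GFI-Ptch arrays 7.66, 7.78, 7.29 and 7.13. Even the low NG-Ptch array lay above all 6, and the gene fell by 1.27 (SE 0.194, adjusted p = 0.0309).

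Rlbp1 (10564726), which has its best known role in the glia and pigment cells of the retina, had the largest fall of the 5, by 1.76 (SE 0.282, adjusted p = 0.0400). Its levels were 8.94, 8.98, 9.26 and 8.44 in NG-Ptch and 7.01 and 6.81 in GFD-Ptch. In GFI-Ptch they were 7.38, 8.16, 6.89 and, in the transplanted tumour, 6.58. GFI-Ptch replicate 2 came closest to NG-Ptch, and the transplanted tumour was farthest.

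**Figure D1:**
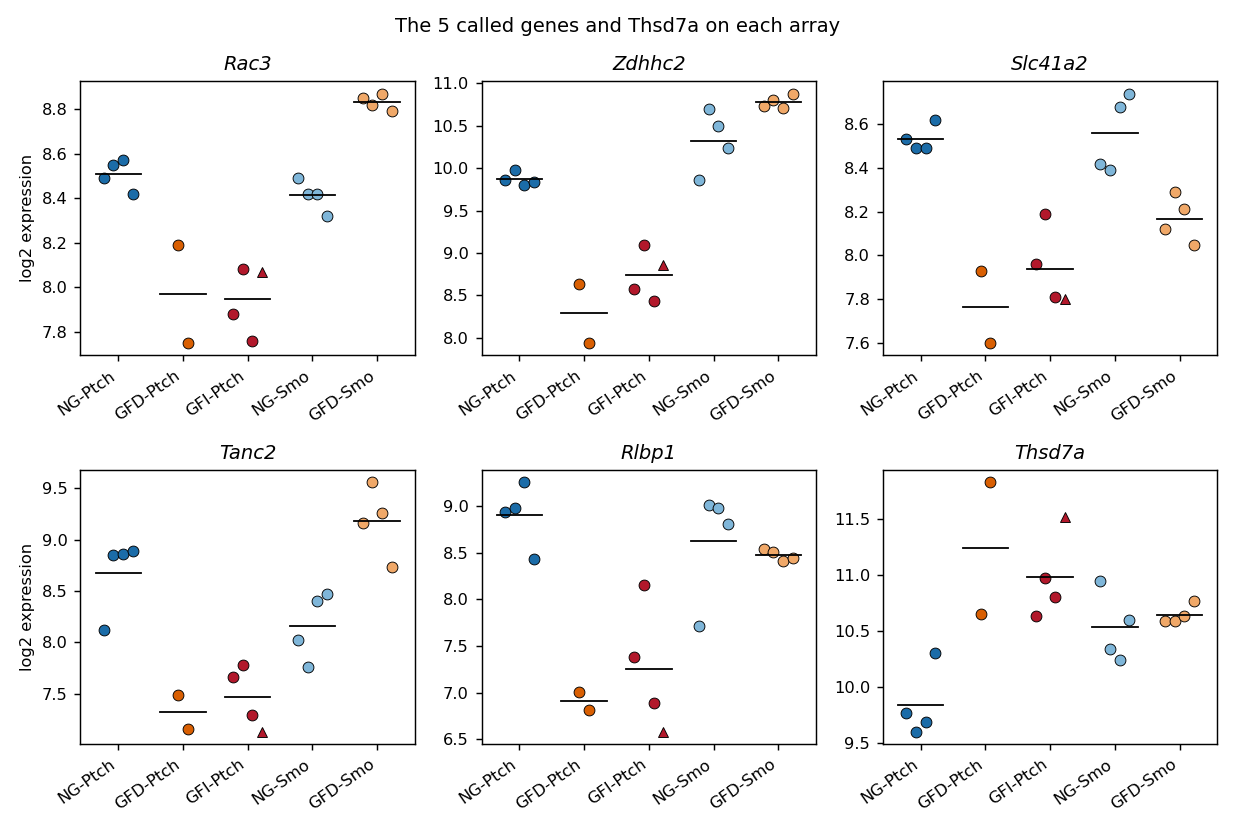
Log2 level (y axis, a different range in each panel) of the 5 called genes and of Thsd7a on each of the 18 arrays, by group. Each point is an array, the triangle is the transplanted tumour and the bar is the group mean; in the first 5 panels all 6 GFD-Ptch and GFI-Ptch points lie below all 4 NG-Ptch points, and in the Thsd7a panel all 6 lie above.

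The differences of the subtypes from NG-Ptch, which share the same 4 NG-Ptch arrays, were of like size for these genes. GFD-Ptch minus NG-Ptch and GFI-Ptch minus NG-Ptch were -0.54 and -0.56 for Rac3, -1.58 and -1.13 for Zdhhc2, and -0.77 and -0.59 for Slc41a2. They were -1.36 and -1.22 for Tanc2 and -1.99 and -1.65 for Rlbp1. The difference of GFI-Ptch from GFD-Ptch did not pass the test for any of the 5 (adjusted p 0.518 to 0.954). Its 95% interval ran from -0.25 to 0.20 for Rac3, -0.01 to 0.92 for Zdhhc2, -0.09 to 0.45 for Slc41a2, -0.42 to 0.71 for Tanc2 and -0.46 to 1.15 for Rlbp1. For each of the 5 a difference between the subtypes as large as the gene's pooled fall lies outside its interval. Smaller differences, within these limits, were not detectable with 2 GFD-Ptch arrays. The pooled test counts the difference between the subtypes as error, so a gene with unlike subtype levels was less likely to be called. The like sizes and these intervals were thus partly fixed by the choice of called genes.

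Without the transplanted tumour 2 genes passed (0.0100%), Rac3 at -0.57 and Zdhhc2 at -1.33, both with an adjusted p of 0.0221. Slc41a2 at -0.64, Tanc2 at -1.21 and Rlbp1 at -1.65 each had an adjusted p of 0.0808 there. All 5 differences thus moved by less than their standard error. The calls depended on each NG-Ptch array. Without NG-Ptch replicate 2, 4 or 5 the count of called genes was 0, and without replicate 1 it was 1. Rac3 had an adjusted p of 0.0662, 0.115, 0.116 and 0.0607 without NG-Ptch replicate 1, 2, 4 or 5, and Zdhhc2 had the same 4 values. With the gender label or the Y-linked level added to the model 0 genes passed (limma, 1497 and 2408 at an unadjusted p under 0.05), at -0.57 and -0.53 for Rac3 (adjusted p 0.205 and 0.111) and at -1.0 and -1.12 for Zdhhc2 (0.25 and 0.111). Without the 3 GF-Ptch arrays that have Y-linked transcripts, a choice made after the data were seen that also removes both GFD-Ptch arrays, 11 genes passed, with Rac3 at -0.49 (adjusted p = 0.0343) and Zdhhc2 at -1.02 (adjusted p = 0.0450). Since no NG-Ptch array had Y-linked transcripts, the part of sex in these differences cannot be fully told apart from that of the subtype.

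Differences without overlap that did not pass the test were more numerous. In all, 500 genes (2.51%) had no overlap between the 6 and the 4 arrays, 258 lower (1.29%) and 242 higher (1.21%) in GF-Ptch. Without the transplanted tumour, between 5 and 4 arrays, there were 1677 (8.41%), and the balance turned, with 607 lower (3.04%) and 1070 higher (5.37%). Of the 500, 71 differed by at least 0.5, with 56 genes lower and 15 higher. At a difference of at least 1 it was 15 lower and 2 higher. The median over all genes was 0.03. Without the transplanted tumour 46 of the 56 remained at -0.5 or below and 8 of the 15 at 0.5 or above.

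Beyond the 5 called genes the lowest adjusted p was 0.0804, which 4 genes shared. Sgk3, a kinase of the serum and glucocorticoid family, was at 7.99, 8.55, 8.46 and 8.14 in NG-Ptch and at 6.73 to 7.77 in GF-Ptch, a difference of -0.97 (SE 0.167). Wipf1, a partner of the actin regulator WASP, was at 7.84 to 8.02 in NG-Ptch and 6.92 to 7.50 in GF-Ptch (-0.78). Exoc6, a subunit of the exocyst that tethers secretory vesicles and a gene named here after its values were seen, differed by -0.99, and its groups met at 8.61 in NG-Ptch replicate 1 and 8.65 in GFD-Ptch replicate 1. The last was Thsd7a.

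Thsd7a (10543145), a membrane protein with thrombospondin domains, was the gene with the lowest p among those higher in GF-Ptch. It was at 9.77, 9.60, 9.69 and 10.30 in NG-Ptch. It read 10.65 and 11.83 in GFD-Ptch and 10.63, 10.97, 10.80 and 11.52 in GFI-Ptch. The difference of 1.22 (SE 0.219, adjusted p = 0.0804) did not pass the test, although all 6 arrays were above all 4. It was called without GFI-Ptch replicate 1 (adjusted p = 0.0413) and stood at 1.13 without the transplanted tumour.

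The other 9 genes that the rule named on the higher side, none of them called, were above NG-Ptch on all 6 arrays, as the rule asked. They differed in how even they were over the 6 arrays. Sema3f, a secreted guidance factor for axons, was at 8.63 to 9.84 against 8.04 to 8.46 (0.87, adjusted p = 0.169). Crnde, a long noncoding RNA, was at 8.58 to 8.87 on all 6 arrays against 7.77 to 8.18 (0.72), and Eml5, a protein of the microtubules, at 10.30 to 10.84 against 9.74 to 10.13 (0.63). Crnde and Eml5 were the more even of these 3, with an SD over the 6 arrays of 0.11 and 0.19. The SD of Sema3f was 0.43, and its highest level was that of the transplanted tumour. Ccl11, the eosinophil chemokine eotaxin, was highest in GFI-Ptch replicates 1 and 2, at 9.53 and 9.41, while the other 4 arrays were at 8.43 to 8.81 against 8.32 to 8.41 in NG-Ptch. Lacc1, an enzyme of macrophages, reached 9.29 in the transplanted tumour and was at 8.17 to 8.69 in the other 5, against 7.72 to 8.06.

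For 4 of the 9 the mean rested on 1 or 2 tumours. Ccnb3, a cyclin best known from meiosis, was at 9.26 in GFD-Ptch replicate 2 and 9.87 in GFI-Ptch replicate 2, and at 5.20 to 5.24 on the other 4 GF-Ptch arrays against 5.12 to 5.13 in NG-Ptch. Its difference of 1.55 is therefore a level found in 2 of 6 tumours, 1 of each subtype. Dlx6, a homeobox gene of interneuron precursors, was at 9.96 in the transplanted tumour and at 7.53 to 8.26 in the other 5 (NG-Ptch 7.30 to 7.50). Crabp2, a carrier of retinoic acid, read 9.34 there and 7.27 to 8.16 elsewhere, and Mymk, the fusion protein of muscle precursors, 10.30 and 7.87 to 8.14. Without that array their differences went from 0.81 to 0.47, from 0.75 to 0.45 and from 0.63 to 0.25.

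Removing the transplanted tumour brought other genes to the front, none of them called (adjusted p 0.105 to 0.322). Among those lower in the other 5 GF-Ptch arrays were Pnmal2 (-0.53), the small nucleolar RNA Snord104 (-0.55) and the Cajal body RNA Scarna17 (-0.81). In the transplanted tumour these 3 were at 8.91, 13.18 and 12.34, inside the NG-Ptch range. Higher were Nnt, the mitochondrial transhydrogenase (0.52), Gpat2 (0.92), Mkx (0.51) and the ephrin receptor Epha3 (0.96). Epha3 was at 9.79 to 10.40 on those 5 arrays, at 8.78 to 9.44 in NG-Ptch and at 6.83 in the transplanted tumour. The balance of all genes shifted too. At an unadjusted p under 0.05 were 2276 genes (11.4%) with that array, 1105 lower (5.54%) and 1171 higher (5.87%). Without it there were 4107 (20.6%), of which 1386 were lower (6.95%) and 2721 higher (13.6%).

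Oligodendrocyte progenitors are the dividing cells that give rise to myelin-forming oligodendrocytes. Their genes gave the largest shift of the 30 gene lists, which were chosen with earlier results of these data known. All 12 measured members were lower in GF-Ptch (8179 of all 19938 genes were lower), with a median of -1.29 against 0.03 for all genes. At an unadjusted p under 0.05 were 12 of the 12 (5.54% of all genes), and 4 of the 12 had no overlap (1.29% of all genes). None passed over all genes (0.0251%), with adjusted p from 0.229 to 0.43. Among the transcription factors of the lineage, Olig1 was at 9.88, 9.87, 10.03 and 9.72 in NG-Ptch, at 8.89 and 8.19 in GFD-Ptch and at 9.01, 9.47, 8.57 and 6.92 in GFI-Ptch, with no overlap (-1.37, adjusted p = 0.245). Olig2 (-0.62), Sox10 (-0.72) and Nkx2-2 (-0.45) overlapped between the sides.

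Of the receptors, Pdgfra, which binds the platelet-derived growth factor that drives these progenitors, was at 11.85 to 12.34 in NG-Ptch. It was at 11.43 and 11.76 in GFD-Ptch and at 11.85, 11.75, 11.53 and 9.26 in GFI-Ptch, where the first lay just under the lowest NG-Ptch array. The difference of -0.85 came to -0.45 without the transplanted tumour. Gpr17, a receptor of cells about to differentiate, was at 9.41, 8.92, 9.46 and 8.57 in NG-Ptch against 7.73, 8.02, 8.08, 8.48, 7.51 and 7.07 (-1.28). Cspg4, the NG2 proteoglycan, was at 8.98 to 9.53 against 7.93 to 8.96 (-0.80). The largest differences were those of the connexin gene Gjc3 (-1.78), Scrg1 (-1.71), the receptor phosphatase Ptprz1 (-1.58) and Lhfpl3 (-1.55), and in these 4 the sides overlapped.

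The tumours did not share this shift evenly. The mean level of the 12 genes was 9.87, 9.71, 9.99 and 9.52 in NG-Ptch, 8.51 and 8.33 in GFD-Ptch, and 9.25, 9.61, 8.50 and 7.45 in GFI-Ptch. GFI-Ptch replicate 2 thus lay inside the NG-Ptch range and replicate 1 just under it, whereas GFI-Ptch replicate 3 matched the GFD-Ptch arrays. Gjc3 shows it most plainly, at 9.15 and 9.98 in GFI-Ptch replicates 1 and 2 against 7.35, 7.21, 7.37 and 6.72 in the other 4, with NG-Ptch at 9.56 to 9.96. Both arrays near NG-Ptch lacked Y-linked transcripts, and 3 of the 4 low arrays had them. The exception was the transplanted tumour, which lacked them and was lowest. With gender as a covariate the list's median was -0.61, and with the Y-linked level it was -1.16. Without the transplanted tumour it was -1.07, with 11 of the 12 at an unadjusted p under 0.05 (6.95% of all genes lower) and 4 of the 12 without overlap (3.04%). This list's level moved in the same direction as the 5 called genes, and its part in their fall was not tested.

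**Figure D2:**
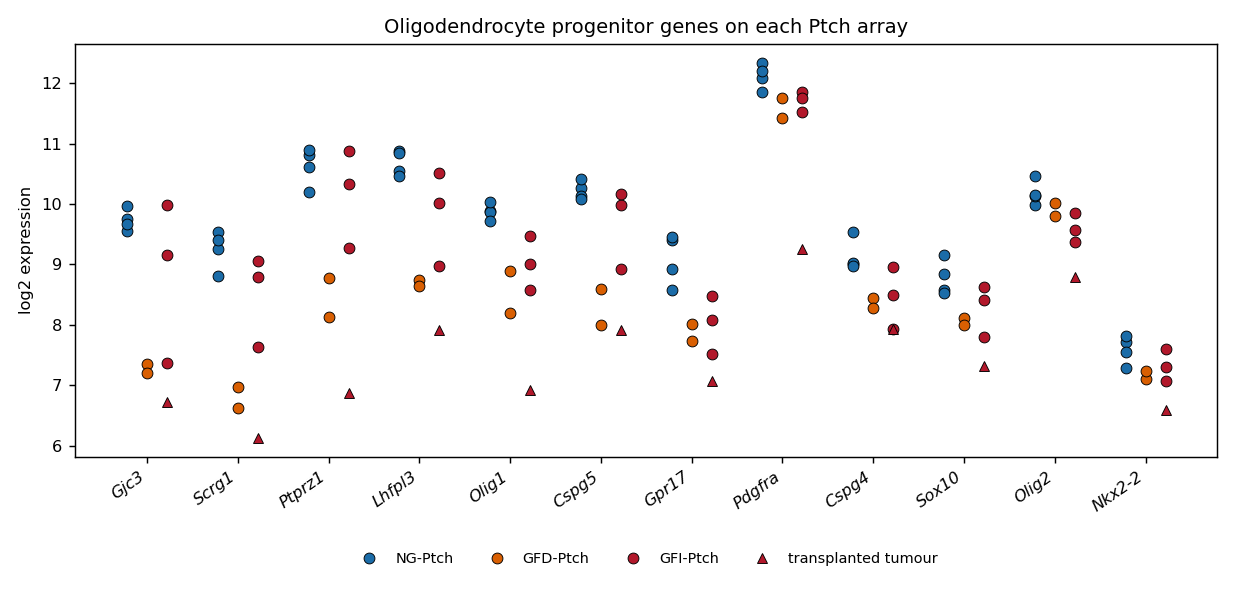
Log2 level (y axis) of the 12 measured oligodendrocyte progenitor genes (x axis, ordered by their difference) on the 10 Ptch arrays, 1 point per array, in NG-Ptch, GFD-Ptch and GFI-Ptch columns, with the transplanted tumour as a triangle. All 4 NG-Ptch points lie above the others for Olig1, Gpr17, Pdgfra and Cspg4, while for Ptprz1 the 2 highest GFI-Ptch points reach the NG-Ptch range.

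Of 11 measured genes of mature myelinating oligodendrocytes 4 were lower and 7 higher, with a median of 0.02, and the difference between this list and that of the progenitors was not tested. Of all 19938 genes 8179 were lower and 11759 higher, so these counts are near those of all genes. At an unadjusted p under 0.05 were 2 of the 11, both lower (5.54% of all genes). They were Cnp, an enzyme of the myelin sheath (-0.98, and -1.80 in GFD-Ptch), and Ugt8a, which makes the myelin lipid galactosylceramide (-0.59). Neither was at an unadjusted p under 0.05 without the transplanted tumour. Astrocyte genes were lower in 15 of 16 members, with a median of -0.53, of which 4 had an unadjusted p under 0.05 (5.54% of all genes) and 0 were called or without overlap. The water channel Aqp4 was at 10.24 to 10.93 in NG-Ptch, 8.95 and 8.70 in GFD-Ptch, and 11.20, 10.53, 9.52 and 8.83 in GFI-Ptch (-1.03, adjusted p = 0.372). The glycolytic enzyme Aldoc read 8.77 and 8.68 in GFD-Ptch, 11.40, 11.80, 9.14 and 8.28 in GFI-Ptch, and 10.43 to 11.68 in NG-Ptch. GFI-Ptch replicates 1 and 2 were therefore at or above NG-Ptch. The list's mean level says the same, at 10.56 and 10.14 in these 2, 9.84 to 10.04 in NG-Ptch, and 9.05, 8.87, 9.37 and 8.68 on the other 4 arrays. Low astrocyte levels were thus found in 4 of the 6 pooled tumours. The list's median was -0.34 without GFD-Ptch replicate 2, -0.11 with gender as a covariate and -0.10 without the 3 arrays that carry Y-linked transcripts.

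Neural stem and radial glia genes were lower in 14 of 16 members, with a median of -0.25 and 3 members, all lower, at an unadjusted p under 0.05 (5.54% of all genes). The stem cell factor Sox2 was at 9.14 to 9.58 in NG-Ptch and at 7.58, 7.72, 9.26, 8.98, 7.47 and 6.95 in the GFD-Ptch and GFI-Ptch arrays in order (-1.33, adjusted p = 0.316). Fabp7, the fatty acid carrier of radial glia, was at 13.10 to 13.38 against 11.03 to 13.25 (-1.13), and Pax3 at 7.11 to 8.55 against 6.93 to 7.51 (-0.71). With gender as a covariate the list's median was -0.04.

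Of 17 measured genes of the Hedgehog pathway 11 were lower and 6 higher, with a median of -0.16. At an unadjusted p under 0.05 were 4 of them, all lower (5.54% of all genes), and 0 were called. The median was -0.07 without the transplanted tumour, -0.02 without NG-Ptch replicate 4 and 0.01 with gender as a covariate. Among the ligand's co-receptors Gas1 had no overlap, at 9.95, 9.82, 10.18 and 9.80 in NG-Ptch and at 9.68, 9.24, 9.63, 9.46, 9.46 and 9.67 in GF-Ptch (-0.41, adjusted p = 0.243), while Boc (0.07) and Cdon (0.01) were near 0. Of the inhibitors, Sufu differed by -0.27 and Gpr161 by -0.22. Hhip, a target that binds the ligand, was at 8.71 to 10.13 in GF-Ptch and 9.61 to 10.59 in NG-Ptch (-0.69, adjusted p = 0.41). The receptor Ptch1 (-0.21), the transducer Smo (0.02) and the target Gli1 (-0.18) had no settled direction, since each turned sign under at least 1 other way of fitting. Mycn, which the pathway drives in progenitors, was at 11.24 to 11.77 against 11.68 to 11.88 (-0.19).

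Granule neuron progenitor genes had a median of -0.08 (13 of 17 lower), with Tlx3 at -0.54, Sox4 at -0.44 and Neurod1 at -0.36, each at an unadjusted p under 0.05 (3 of 17, against 5.54% of all genes). Of the 19 genes of differentiated neurons 15 were lower, with a median of -0.21. The subtypes did not share this: the medians were 0.04 in GFD-Ptch and -0.46 in GFI-Ptch, a difference that was not tested. The pooled median was -0.11 without NG-Ptch replicate 1, -0.71 with gender as a covariate and -0.54 without the 3 arrays that carry Y-linked transcripts. Here 2 neurofilament genes had no overlap (1.29% of all genes were lower without overlap) and the other 17 did overlap. Nefl was at 8.32, 9.02, 8.82 and 8.79 in NG-Ptch, at 6.97 and 6.86 in GFD-Ptch and at 7.21, 7.10, 6.85 and 6.93 in GFI-Ptch. The 6 pooled arrays spanned 6.85 to 7.21, the difference was -1.75 (SE 0.432) and its adjusted p was 0.242. In the fit of the 10 Ptch arrays alone Nefl was the 1 gene called (adjusted p = 0.00106). Nefm was at 6.75 to 7.18 against 6.38 to 6.50 (-0.60), and the third neurofilament gene, Nefh, differed by 0.06. Car8, an inhibitor of calcium release, was at 7.64 to 9.33 in NG-Ptch and 7.09 to 8.72 in GF-Ptch (-1.20).

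Signalling by FGF and EGF receptors had a median of -0.14 with 13 of 18 members lower, 4 of them at an unadjusted p under 0.05 (5.54% of all genes) and 2 without overlap (1.29%). Etv5, a transcription factor that FGF signalling induces, was at 10.12 to 10.61 in NG-Ptch and 9.46 to 10.01 in GF-Ptch (-0.54, adjusted p = 0.334), and the feedback inhibitor Spry4 differed by -0.22. Egfr was at 10.91 to 11.56 against 10.01 to 11.03 (-0.47) and Fgfr1 was even (0.00). Without the 3 arrays that carry Y-linked transcripts this list's median was 0.04, and with gender as a covariate it was -0.02. Of 17 axon guidance and adhesion genes 11 were lower, with a median of -0.21 that came to -0.12 without the transplanted tumour. The medians were 0.11 in GFD-Ptch and -0.15 in GFI-Ptch, and the difference between them was not tested. The adhesion molecule Cntn1, at 10.79 to 10.97 in NG-Ptch and 8.57 to 10.58 in GF-Ptch (-0.92), and the netrin receptor Unc5c (-0.96) were lower without overlap (1.29% of all genes), and another netrin receptor, Dcc, was higher without overlap (0.35, adjusted p = 0.25, 1.21% of all genes). Unc5c was at 9.81 and 9.84 in GFD-Ptch, just under the lowest NG-Ptch array at 9.86, and at 8.14 to 8.99 in GFI-Ptch, so its difference came mostly from GFI-Ptch.

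On the higher side were lists of cells and responses outside the tumour lineage. Their counts of higher members stand beside 11759 higher among all 19938 genes. Skeletal muscle genes had a median of 0.57, but this was the transplanted tumour: the mean level of the 16 genes was 10.20 there and 7.24 to 7.44 on the other 5 GF-Ptch arrays, against 7.22 to 7.40 in NG-Ptch. Without it the median was 0.10. Ttn, the giant protein of the sarcomere, showed the pattern at 9.77 against 6.64 to 6.81 and 6.47 to 6.59. The interferon response was higher in 12 of 13 genes, with a median of 0.38, and 0.21 without the transplanted tumour, whose mean level of 8.59 was the highest. Its medians in GFD-Ptch and GFI-Ptch were -0.01 and 0.54, and the difference between them was not tested. Collagens of fibroblasts were higher by small and even amounts. Col1a2 was at 8.41 to 8.68 in GF-Ptch and 8.20 to 8.42 in NG-Ptch (0.28), so the sides overlapped, and Col1a1 differed by 0.23. The list of fibroblasts and pericytes had 11 of 14 genes higher and a median of 0.21. At an unadjusted p under 0.05 were 3 higher members (5.87% of all genes) and 1 lower member (5.54%). The lower one was Cspg4 (-0.80), also on the progenitor list and the 1 member of this list without overlap (1.29% of all genes were lower without overlap).

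Hypoxia and glycolysis genes were higher in 13 of 14 members, with a median of 0.21, and 1 higher (5.87% of all genes) and 1 lower member (5.54%) at an unadjusted p under 0.05. Without the transplanted tumour, whose mean level of 9.80 was the highest, the median was 0.11 and the higher members at that p were 0. Endothelial genes had a median of 0.15 (11 of 14 higher, beside 11759 of all 19938 genes), with 0.38 in GFD-Ptch and -0.01 in GFI-Ptch. Lymphocyte genes had a median of 0.09 (11 of 12 higher) and microglia and macrophage genes -0.13 (14 of 17 lower, and -0.05 without the transplanted tumour). Division was level: the medians were 0.00 for 17 genes of S phase and -0.07 for 15 genes of mitosis, with 0 of either at an unadjusted p under 0.05. Purkinje cell and interneuron, p53, Wnt, mesenchymal, choroid plexus, IGF and PI3K, and Polycomb and DNA methylation genes had medians between -0.07 and 0.03. Synapse and ion channel genes stood at -0.23, and at -0.05 without the transplanted tumour, whose mean level of 9.03 lay under the 9.78 to 10.27 of the other 5 GF-Ptch arrays. Their medians were 0.12 in GFD-Ptch and -0.34 in GFI-Ptch, and differences between the subtypes were not tested for these lists. Notch genes stood at -0.10 and MHC class II genes at 0.09, and at -0.21 and 0.18 without that tumour. None of the genes of these lists passed the test over all genes.

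**Figure D3:**
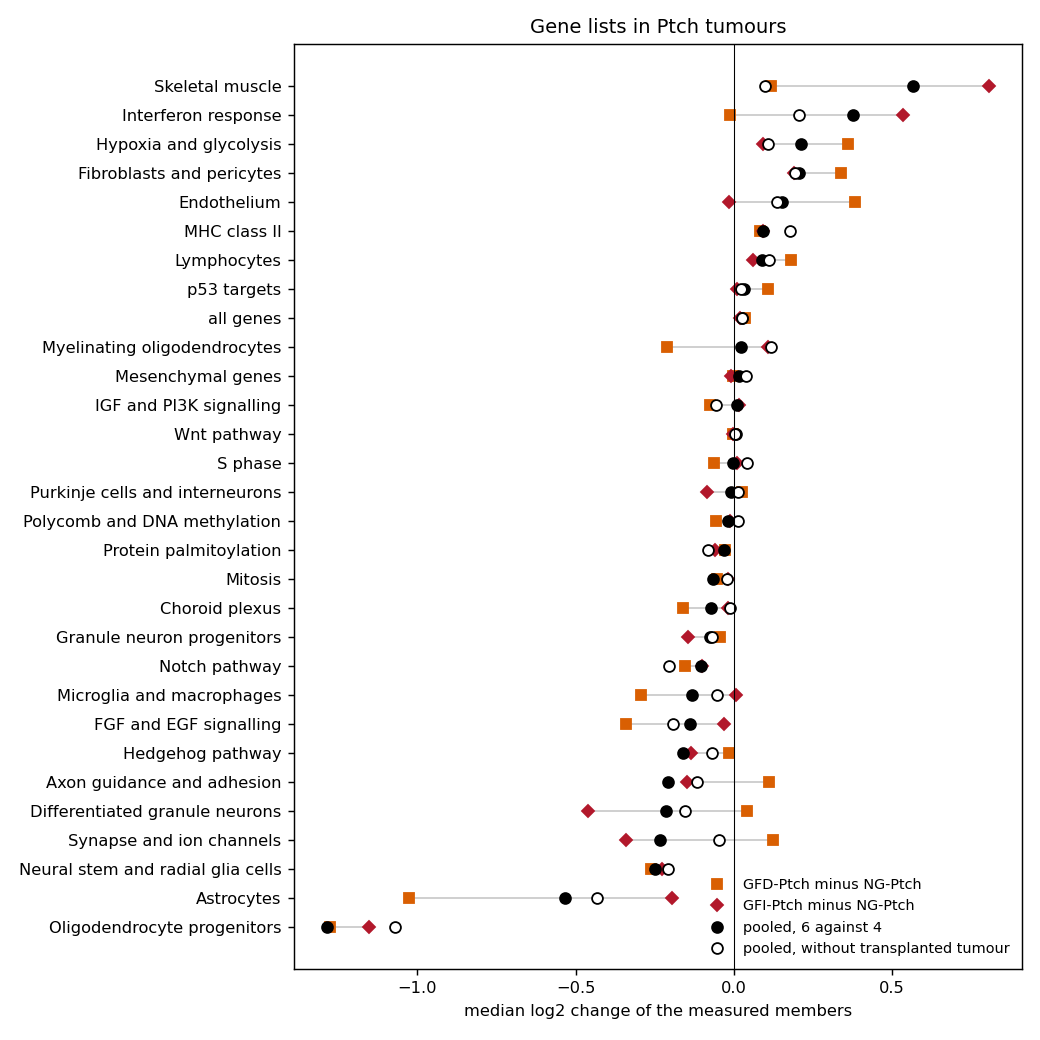
Median log2 difference from NG-Ptch (x axis) of the measured members of 29 gene lists and of all genes (y axis), for GFD-Ptch (squares), GFI-Ptch (diamonds), both pooled (filled circles) and both pooled without the transplanted tumour (open circles). Oligodendrocyte progenitor genes are low by all 4 measures (-1.07 to -1.29), and the open circle of skeletal muscle drops from 0.57 to 0.10. The astrocyte median is -1.03 in GFD-Ptch and -0.19 in GFI-Ptch, a difference that was not tested. On single arrays the mean astrocyte level was 9.05 and 8.87 in GFD-Ptch and ran from 8.68 to 10.56 in GFI-Ptch.

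Vopp1 is a gene whose pooled difference describes neither subtype. It was at 10.15 to 10.42 in NG-Ptch, 11.04 and 10.89 in GFD-Ptch and 10.15 to 10.43 in GFI-Ptch, and the pooled difference of 0.23 (adjusted p = 0.507) averages levels that stand apart. It was the 1 gene called between GFI-Ptch and GFD-Ptch (-0.69, adjusted p = 0.00562).

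The Smo tumours hold a contrast of GFD with NG, without GFI, and no array in common with the Ptch comparison. GFD-Smo minus NG-Smo, fitted on those 8 arrays, called 1167 genes (5.85%), 564 lower (2.83%) and 603 higher (3.02%). In these tumours the subtype coincides with the Cre driver, GFAP-cre or Atoh1-CreER, so the effect of either cannot be told apart. No Smo array is labelled GFI, the label of most GF-Ptch arrays, so GFI has no counterpart there. Of the 5 genes that fell in GF-Ptch 0 were called lower in GFD-Smo (limma) and 2 were called higher. Rac3 was at 8.79 to 8.87 in GFD-Smo and 8.32 to 8.49 in NG-Smo and rose by 0.42 (SE 0.0516, adjusted p = 0.00280). Tanc2 was at 8.73 to 9.56 against 7.76 to 8.47 and rose by 1.02 (SE 0.204, adjusted p = 0.0238). Zdhhc2 (0.45, adjusted p = 0.173) and Rlbp1 (-0.16, adjusted p = 0.894) did not pass. Zdhhc2 was higher in GFD-Smo without overlap, at 10.71 to 10.88 against 9.86 to 10.70 in NG-Smo. Slc41a2 was lower in GFD-Smo without overlap and did not pass, at 8.05 to 8.29 in GFD-Smo and 8.39 to 8.74 in NG-Smo (-0.39, adjusted p = 0.0508).

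The difference between the models, the pooled Ptch difference minus the Smo difference, was added after the data were seen and was tested in the fit of all 18 arrays. It was -0.97 for Rac3 (adjusted p = 2.05e-04), -1.73 for Zdhhc2 (0.00198), -2.28 for Tanc2 (4.02e-04) and -1.61 for Rlbp1 (0.0437), all past the threshold. For Slc41a2 it was -0.26 (adjusted p = 0.379). As these genes were picked for their fall in Ptch tumours, part of each difference was fixed by that choice. Over all genes 684 (3.43%) differed between the models. This difference sets GFD and GFI together in the Ptch tumours against GFD alone in the Smo tumours. The part of the model and that of GFI cannot be told apart in it.

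Of the 56 genes that were lower by at least 0.5 without overlap in GF-Ptch, 42 were higher and 14 lower in GFD-Smo, while 53.9% of all genes were lower there. Of the 56, 12 were called higher (21.4%, against 3.02% of all genes) and 1 was called lower (against 2.83% of all genes). The 12, named after their values were seen, were Zfp975, Prkcq, Tanc2, Pcdh11x, Sgk3, Gnb4, Eya1, Grm5, Srgap1, St6gal2, Prkg1 and Rac3, and the 1 lower was Adamtsl3.

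Pcdh11x, a protocadherin of the X chromosome, was at 9.36 to 9.51 in GFD-Smo and 7.02 to 8.42 in NG-Smo, and at 6.27 to 7.65 in GF-Ptch against 7.83 to 8.20 in NG-Ptch. Thus all 4 GFD-Smo arrays were above every other array, and all 6 GF-Ptch arrays below every NG-Ptch array. Eya1, a transcriptional cofactor and phosphatase, was ordered likewise, at 9.42 to 9.95, 7.67 to 8.12, 6.55 to 7.82 and 7.83 to 8.35 in the same groups. Sgk3 was at 9.24 to 9.31 in GFD-Smo against 7.87 to 8.08 in NG-Smo (1.35, adjusted p = 2.46e-05), and Prkcq, a kinase of the protein kinase C family, at 10.12 to 10.29 against 8.48 to 9.59 (1.22). The metabotropic glutamate receptor Grm5 (0.74) and the Slit-Robo GTPase-activating protein Srgap1 (0.44) rose in GFD-Smo too, against -0.71 and -0.59 in the Ptch comparison. In the Smo tumours astrocyte genes moved with these differences, at a mean level of 11.24 to 11.27 in GFD-Smo and 9.73 to 10.09 in NG-Smo. In the Ptch tumours they did so only in part. GFI-Ptch replicates 1 and 2 were at 10.56 and 10.14, above the 9.84 to 10.04 of NG-Ptch, and the other 4 GF-Ptch arrays were at 8.68 to 9.37. The part of astrocyte genes in the result was not tested.

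Of the 15 genes that were higher by at least 0.5 without overlap in GF-Ptch, 6 were higher in GFD-Smo and 9 lower (53.9% of all genes were lower). Of the 15, 0 were called higher (3.02% of all genes) and 4 were called lower (2.83%). Those 4 were Ccl11 (-0.65), Lacc1 (-0.41), Dlx6 (-0.84) and BC040756 (-1.96), the last named after its values were seen. Oligodendrocyte progenitor genes, the list with the largest shift in GF-Ptch, had a median of 0.22 in GFD-Smo minus NG-Smo.

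**Figure D4:**
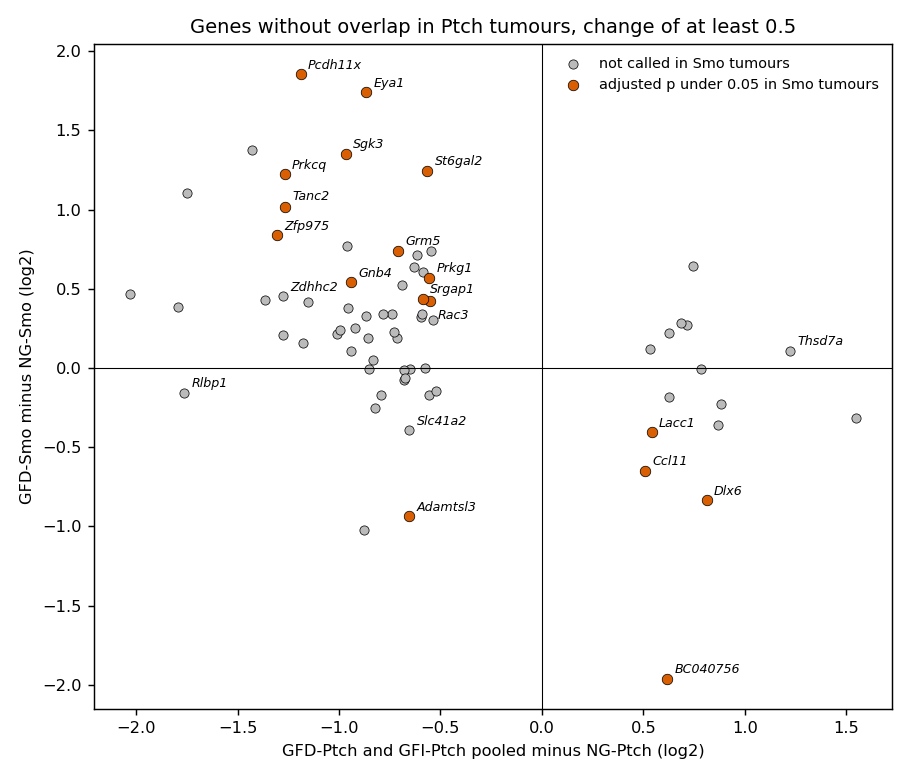
Difference in the Ptch tumours (x axis, GFD-Ptch and GFI-Ptch pooled minus NG-Ptch, log2) against the difference in the Smo tumours (y axis, GFD-Smo minus NG-Smo, log2) for the 71 genes that differed by at least 0.5 without overlap in the Ptch tumours, 1 point per gene, with genes called in the Smo tumours in orange. On the left side 12 orange points lie above 0 and 1 below, and on the right side 4 orange points lie below 0.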

How the data were processed

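Total RNA of 18 mouse tumours, taken up in Trizol, was converted to biotin-labelled cDNA for Affymetrix Gene ST 1.0 mouse arrays, per the labels' protocols. The deposited values are on the log2 scale. The submitters' processing notes name Partek 6.6. How the authors corrected background, summarised probes and scaled the arrays is not given in the sources used here. Of 35556 probe sets 23410 were in the probe table, 21789 with 1 symbol, 1621 with several and 12146 without an entry. For 999 genes with several probe sets the one with the highest mean was kept, which left 19938 genes, with no filter on dim genes.

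All 18 arrays were fitted with limma 3.58.1 (R 4.3.3), with 4 means (GF-Ptch, NG-Ptch, NG-Smo, GFD-Smo), 14 residual and 2.429 prior degrees of freedom, two-sided moderated tests, and Benjamini-Hochberg adjustment over 19938 genes. A fit with 5 means gave the subtypes side by side and their 95% intervals, and the Smo comparison used its 8 arrays alone. Precision is limited by the number of arrays. Whether replicates are separate animals is not stated in the labels, so the p-values reflect only how these samples spread. The arrays of a group came from different tumours. Within GFI-Ptch, for example, the Y-linked level was 10.16 in replicate 3 and 5.54 in replicate 1. How much of the spread is technical was not tested.

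Of the 447 entries of 30 lists 420 were measured (411 different genes), and lists were described by counts and medians with no test. Genes were named by a rule: up to 15 per direction with an adjusted p under 0.05, a change of at least 0.5, no overlap and both subtype means on that side. With fewer than 5 such genes the 10 lowest p without overlap were taken. Up to 6 members of each list and a fixed set of genes could also be named, and sex-linked and unnamed loci were left out of the ranking. The comparison, lists and rule were chosen with earlier results of these data known. Alternatives changed the normalization, the filter, the samples, the covariates, the probe sets and the prior, and left out each array in turn. The fit was tested on simulated data. Figures were drawn with matplotlib 3.10.9 in Python 3.11.15.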

Additional observations from a re-analysis of the deposited data

Results flagged for a closer look

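In a group of 4 to 10 arrays a single array was marked when its gap to the nearest other was large for the group's range, which chance does in about 1 in 20 groups. Only the 77 genes followed were checked, in GF-Ptch and in NG-Ptch. The transplanted tumour was marked most often. Some of these genes, Pnmal2, Scarna17 and Epha3 among them, were named by the rule applied without this array, so its tally was partly fixed by that choice. The transplanted tumour was the highest GF-Ptch array for Dlx6 (9.96), Mymk (10.30), Ttn (9.77), Pnmal2 (8.91) and Scarna17 (12.34). It was the lowest for Pdgfra (9.26), Egfr (10.01), Grm5 (7.76), Srgap1 (7.86) and Epha3 (6.83). Other GF-Ptch arrays were marked for Exoc6 (8.65, GFD-Ptch replicate 1), Car8 (8.72, GFI-Ptch replicate 2) and Prkcq (7.09, GFI-Ptch replicate 3).

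In NG-Ptch, replicate 1 was marked for Tanc2 (8.12, low) and Pnmal2 (8.92, high) and replicate 2 for Mymk (7.59) and Mkx (6.48), both low. Replicate 4 was marked for Cspg4 (9.53), St6gal2 (7.40), Scarna17 (12.44) and, low, for Nnt (9.45). Replicate 5 was marked for Sufu (11.35, low).

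The difference between GF-Ptch and NG-Ptch departed from that between GFD-Smo and NG-Smo, by a test of the difference itself, for Tanc2 (-2.28), Zdhhc2 (-1.73), Rlbp1 (-1.61) and Rac3 (-0.97), genes picked for their fall in the Ptch tumours.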

How the results depend on the processing

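The 5 called genes kept their direction in all 32 alternatives, and Rac3 and Zdhhc2 were past the threshold in 24, Slc41a2 in 19, Tanc2 in 15 and Rlbp1 in 11. The number of called genes, 5 of 5 shared by both subtypes, moved far more. It was 7 with quantile normalization, 8 with median centring, 9 with dim genes left out (8 shared), 81 with array weights (46 shared), 1 with the Ptch arrays alone (Nefl, unadjusted 1882), 3 with 5 means by either weighting, 3 with the mean of probe sets, and 0 with the gender label or the Y-linked level in the model. It was 11 without the 3 Ptch arrays that carry Y-linked transcripts, an alternative chosen after the data were seen. Leaving out each array in turn it was 0 to 15, shared or not. It was 15 without GFI-Ptch replicate 1, 14 without replicate 2, 3 without replicate 3 or GFD-Ptch replicate 2, 2 without the transplanted tumour, 2 without GFD-Smo replicate 1 or 3, and 1 or 0 without an NG-Ptch array.

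Without the transplanted tumour the count of 2 became 4 with median centring or with dim genes left out, 379 with array weights, 1 with the Ptch arrays alone, 5 or 12 with 5 means weighted by arrays or equally, 5 with a trend in the prior, 0 with the gender label or Y-linked level, 33 without the arrays with Y-linked transcripts, and 0 to 96 when each array was left out (96 without NG-Smo replicate 4). The Smo count of 1167 ranged from 620 to 1438 when each array was left out.

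Deviations from the group means showed no clear link between same-numbered arrays (correlations of -0.208 to 0.08 over 7 pairs). In GFD-Ptch, however, the deviations of the arrays are exact opposites, and the other groups are small. This check therefore cannot decide whether same-numbered arrays share a batch. With the number as a replicate block, 0 genes were called in the pooled comparison (limma, 1582 at an unadjusted p under 0.05), 0 of them shared, and 0 without the transplanted tumour (3921).

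Directions turned for genes that were not called. Ptch1 was at 0.057 with array weights and 0.093 with the gender label, and Gli1 at 0.041 with the gender label. Smo was at -0.017 with median centring, -0.062 with the Y-linked level, -0.071 to 0.138 over the fits without 1 array, and -0.135 without the arrays with Y-linked transcripts. Without those arrays Vopp1 was at -0.055 and Epha3 at -0.087, and Epha3 was at -0.039 with the gender label. Leaving those arrays out removes both GFD-Ptch arrays, the higher of which read 11.04 for Vopp1. It keeps the transplanted tumour, which read 6.83 for Epha3. The cause of the turns was not tested. Over all alternatives 2343 values of the 77 genes followed kept both their side and their call or lack of one. A further 67 kept their side and lost a call, 41 kept their side and gained one, and 12 turned. Probe signal over background was not part of the values used here, so low levels have no stated limit.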
